A study of Rattus norvegicus with 8 samples.

Results

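The chemokine Cxcl12, the alarmin Il33 and 8 related genes of leukocyte recruitment were followed in rat liver after the animals had drunk hydrogen water. The 10 genes were chosen by name, with the difference between hydrogen water and control in these arrays already known, so that difference is given for each of them as a description, and it supports nothing on its own. All 10 genes had a probe set with a single gene symbol, 16 probe sets in all, of 14217 genes and 31042 probe sets. The outbred Sprague-Dawley rats, all male, were 4 weeks old at the start and 8 weeks old when the liver was taken. Controls drank sterilized distilled water and the treated rats hydrogen water, with 0.7 mM dissolved hydrogen, for 4 weeks. Each group held 8 animals and is represented by 4 arrays, and the labels do not say whether an array is 1 animal or a pool. The errors and p-values therefore rest on the spread between arrays, and not on a known number of animals.

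Chemokines are small secreted proteins that guide leukocytes along a gradient, through G protein-coupled receptors on the migrating cell. CXCL12 acts on CXCR4 and holds blood-forming cells and lymphocytes in place, and CX3CL1 is a chemokine tethered to the membrane. IL-33 is a nuclear cytokine of the interleukin 1 family that is set free when cells are damaged and signals through ST2, the product of Il1rl1. VCAM-1 and ICAM-1, on endothelial and other cells, bind leukocyte integrins and hold the cells at the vessel wall. Many of these genes are known to respond to the transcription factor NF-kappaB or to interferon.

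Promoter sequence was matched for 9 of the 10 genes in RefSeq (build GRCr8), with 2 alternative start sites for Il33. The 250 bases before each start were searched on both strands for 5 motifs. NF-kappaB sites, in their usual degenerate form, were found before 3 of the 9 genes, Cxcl1, Cxcl10 and Vcam1, against 6.33% of 33469 windows of the same length. The interferon-stimulated response element GAAANNGAAA was found before Cxcl10 and Vcam1, against 3.41% of all windows. The TATA box TATAAA was present before 7 of the 9, against 12.9%. Its match began at −246 from the start at Il1rl1 and at −162 at Cxcl10. The windows of Il1rl1 and Cx3cl1 lay wholly inside the outer RefSeq ends of the gene, as did the TATA match of Icam1. Il33 was counted by 1 of its 2 windows, while the background is per window. The hypoxia response element ACGTG was found before Vcam1 (16.6% of all windows) and the STAT site TTCNNNGAA before Icam1 (7.67%). The STAT match of Icam1 also lay inside the outer RefSeq ends of the gene. Matches of different motifs did not overlap, while matches of the NF-kappaB or TATA motif on the 2 strands overlapped each other. A match on these letters is a description of the window and not a site shown to be bound.

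The windows of Cxcl12 and Il33 are shown because these genes held the 2 probe sets that passed the threshold, and those of Cxcl10 and Vcam1 because they hold most of the motifs. Capitals mark the motif matches, and each window reads 5′ to 3′ toward the start of transcription. The windows are chr4:152060531-152060780 (plus strand) for Cxcl12, chr1:237115323-237115477 (plus strand, cut to the 155 bases outside the gene) for Il33, chr14:15988816-15989065 (plus strand) for Cxcl10 and chr2:206742784-206743033 (minus strand) for Vcam1. The Cxcl12 window held no match to any of the 5 motifs. The stretch shown for Il33 also held none, and its TATA box lay before the alternative start inside the gene.
Cxcl12: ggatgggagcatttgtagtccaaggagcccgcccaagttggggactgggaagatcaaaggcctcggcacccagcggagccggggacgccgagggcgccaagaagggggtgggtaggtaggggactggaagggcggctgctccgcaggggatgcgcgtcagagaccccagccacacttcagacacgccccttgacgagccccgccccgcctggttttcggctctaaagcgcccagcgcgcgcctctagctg
Il33: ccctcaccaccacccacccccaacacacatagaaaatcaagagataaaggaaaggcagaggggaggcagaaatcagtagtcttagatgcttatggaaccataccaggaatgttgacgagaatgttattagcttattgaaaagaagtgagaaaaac
Cxcl10: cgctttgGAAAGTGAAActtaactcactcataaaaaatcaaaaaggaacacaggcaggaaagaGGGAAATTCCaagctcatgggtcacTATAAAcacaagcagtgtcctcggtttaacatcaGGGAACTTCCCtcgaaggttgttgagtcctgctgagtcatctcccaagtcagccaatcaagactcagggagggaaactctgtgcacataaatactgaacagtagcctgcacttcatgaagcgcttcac
Vcam1: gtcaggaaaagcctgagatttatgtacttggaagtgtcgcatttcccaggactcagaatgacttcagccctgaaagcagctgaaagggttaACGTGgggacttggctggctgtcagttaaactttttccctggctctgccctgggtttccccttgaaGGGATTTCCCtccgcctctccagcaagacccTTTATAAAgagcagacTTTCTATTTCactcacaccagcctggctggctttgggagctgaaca

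Cxcl12 signals were read by 3 probe sets, and they disagreed. Probe set 1369633_at gave signals of 895, 794, 793 and 790 on the control arrays and 543, 457, 466 and 508 on the hydrogen water arrays. The groups did not overlap, and every hydrogen water array was below every control. The log2 signal went from 9.68 ± 0.09 to 8.95 ± 0.12 (SD, n = 4 each), a difference of −0.73 ± 0.09 (SE), or 1.66-fold lower with hydrogen water. Probe set 1387655_at gave 570, 552, 454 and 569 in controls and 450, 426, 384 and 401 with hydrogen water, again without overlap, although control 3 lay just above the highest treated array. Its difference was −0.36 ± 0.10 (SE) on the log2 scale and did not pass the threshold. Probe set 1388583_at gave 2450, 2080, 1820 and 2100 in controls and 1870, 2280, 1870 and 1930 with hydrogen water, with full overlap of the groups and a difference of −0.09 ± 0.10 (SE). The threshold throughout was an adjusted p of 0.05 in limma, a linear model fitted to all tested probe sets. In whole liver, fewer cells of a type and less RNA per cell cannot be told apart.

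**Figure D1:**
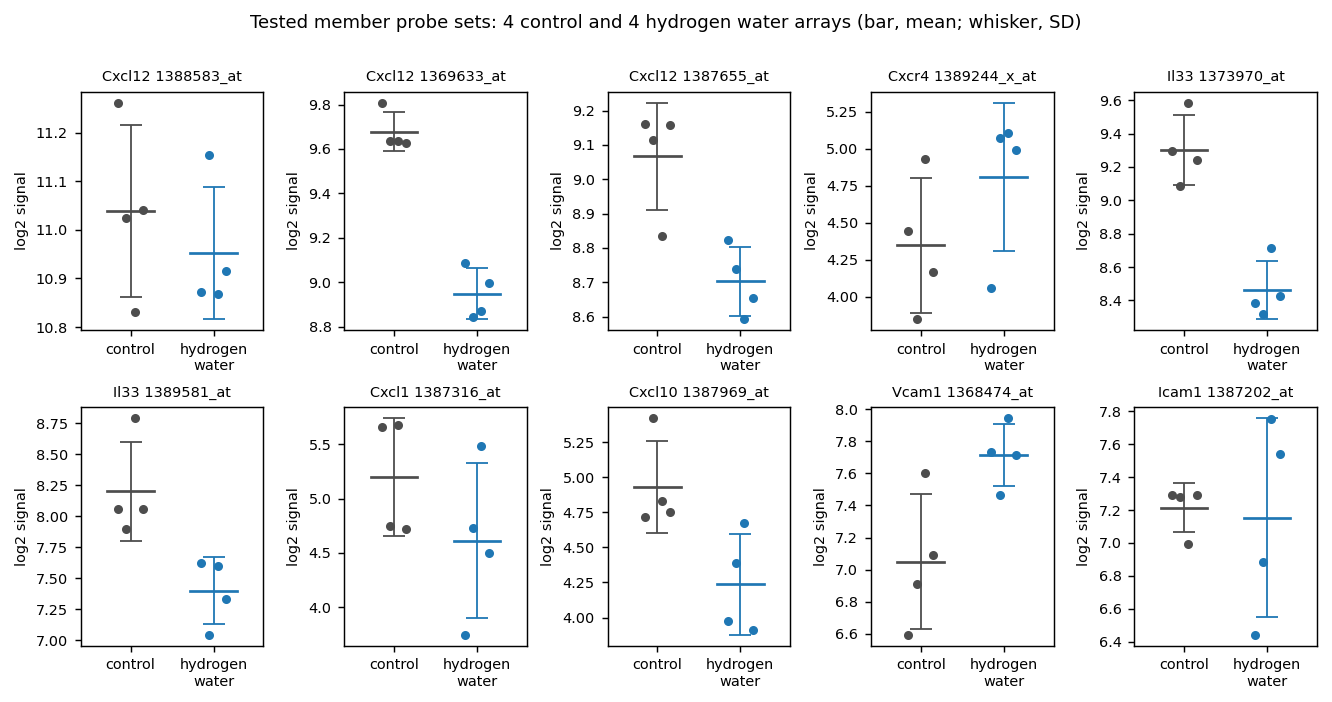
Log2 signals, after quantile normalization, of the 10 member probe sets that passed the filter on low signals. Each panel has its own vertical axis and shows the 4 control and 4 hydrogen water arrays as points, with the group mean as a bar and the SD as a whisker. The groups do not overlap at 5 of the panels, which are Cxcl12 1369633_at and 1387655_at, both Il33 probe sets and Cxcl10. They overlap at the other 5, and at Icam1 the treated arrays reach past the controls on both sides.

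The Cxcl12 probe sets can also be set against each other within each array, as a description of the same values. The log2 ratio of the deposited signals of 1369633_at over 1388583_at was −1.39, −1.37, −1.2 and −1.42 in controls and −1.84, −2.27, −2.09 and −1.95 with hydrogen water. The ratio was lower on every treated array than on every control, with means of −1.35 ± 0.10 and −2.04 ± 0.19 (SD over 4 arrays) and a difference of −0.69 ± 0.11 (SE). For 1387655_at over 1388583_at the mean log2 ratio was −1.96 ± 0.07 for the controls, while the treated arrays gave −2.28 ± 0.12 (SD over 4 arrays). The groups again did not overlap, and the difference was −0.32 ± 0.07 (SE). After quantile normalization the second pair overlapped at 1 control and 1 treated array, and its difference was −0.28 ± 0.09 (SE). The part of array brightness in these ratios was not tested. Which transcripts each probe set binds is not given in the sources used here.

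**Figure D2:**
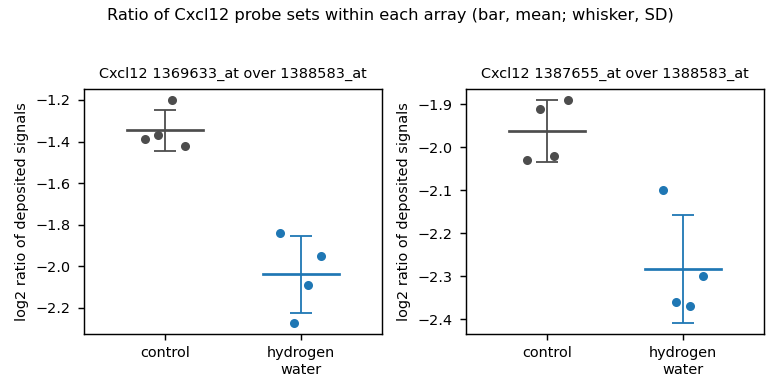
Log2 ratio of deposited signals between Cxcl12 probe sets on the same array, for the 4 control and 4 hydrogen water arrays (points; bar, mean; whisker, SD). Both ratios are lower on each hydrogen water array than on each control array, by 0.69 and 0.32 in the means.

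Cxcr4, the receptor through which CXCL12 steers leukocytes, was dim. Its probe set 1389244_x_at, whose name marks probes that can bind several transcripts, gave signals of 19.7, 12.4, 28.4 and 15.9 in controls and 14.6, 31.7, 32.5 and 29.8 with hydrogen water. Treated arrays 2, 3 and 4 were above every control and treated array 1 was below all controls but 1, and the difference of 0.46 ± 0.31 (SE) on the log2 scale did not pass. It was 0.73 without treated array 1 and 0.30 without control 2. The other 2 probe sets of Cxcr4 lay just under the filter on low signals, which kept a probe set with a mean log2 signal, over the 8 arrays, of 4.42 or more. One of them, 1370097_a_at, ranged from 13.2 to 22.9 in controls and from 14.9 to 27.6 with hydrogen water. The other, 1373661_a_at, ranged from 16.7 to 30.0 and from 7.63 to 30.0, with a lower mean in the treated group, so that the Cxcr4 probe sets did not share a direction. Only 1389244_x_at was tested, and its control mean of 4.35 lay below the level of the filter. It was kept through its treated mean of 4.81.

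Il33 signals were lower on every hydrogen water array than on every control at both of its probe sets, and 1 of the 2 passed the threshold. Probe set 1373970_at gave signals of 625, 540, 767 and 603 in controls and 332, 318, 418 and 343 with hydrogen water. The log2 signal went from 9.30 ± 0.21 to 8.46 ± 0.17 (SD, n = 4 each). The difference of −0.84 ± 0.12 (SE) passed the threshold and corresponds to a signal 1.79-fold lower. Probe set 1389581_at gave 264, 236, 440 and 265 in controls and 195, 130, 192 and 159 with hydrogen water, without overlap, and a difference of −0.80 ± 0.20 (SE) that did not pass. Control 3 was the highest array at both probe sets. On deposited signals, the log2 ratio of 1389581_at over 1373970_at averaged −1.09 ± 0.20 for the controls and −1.08 ± 0.23 for the treated arrays (SD over 4 arrays), so that the difference was 0.01 ± 0.15 (SE).

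The transcript of the IL-33 receptor chain, Il1rl1, was read by 2 probe sets, both under the filter on low signals. Probe set 1370692_at ranged from 0.943 to 8.1 in controls and from 1.41 to 13.0 with hydrogen water, and 1387273_at from 0.51 to 6.66 and from 1.0 to 7.36. No fold is given at this level. The highest array of each group at one of these probe sets was not the highest at the other.

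The inflammatory chemokines among the members were dim in both groups. Cxcl10, an interferon-induced ligand of CXCR3, gave 24.3, 40.7, 26.5 and 24.9 in controls and 13.7, 18.9, 23.4 and 13.0 with hydrogen water. The groups did not overlap, but the gap between control 1 and treated array 3 was small, and the treated mean lay below the level of the filter. The difference of −0.69 ± 0.25 (SE) on the log2 scale did not pass. Cxcl1, a neutrophil attractant, gave 48.4, 24.8, 49.2 and 24.2 in controls and 11.4, 24.4, 42.6 and 20.5 with hydrogen water, with overlapping groups and a difference of −0.59 ± 0.37 (SE). That difference was −0.30 without treated array 1 and −0.89 without treated array 3. Ccl2, which draws monocytes through CCR2, was below the filter, at 7.26, 11.3, 15.9 and 13.5 in controls and 0.75, 16.3, 1.69 and 1.49 with hydrogen water. Treated arrays 1, 3 and 4 of Ccl2 were lower than any control, while treated array 2 was the highest of all 8. The membrane-bound chemokine Cx3cl1 was also below the filter, at 7.87 to 13.9 in controls and 4.94 to 20.2 with hydrogen water.

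**Figure D3:**
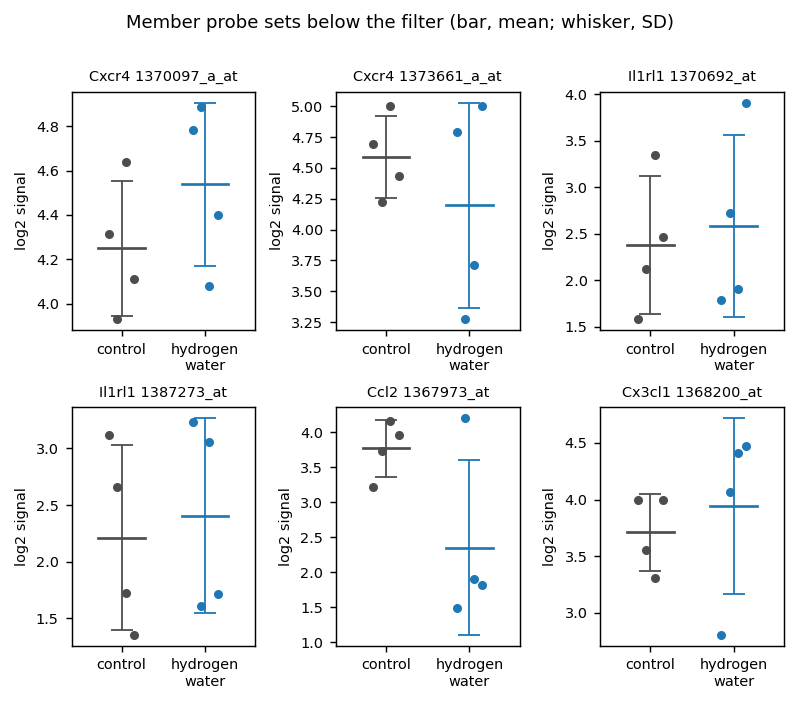
Log2 signals, after quantile normalization, of the 6 member probe sets that did not pass the filter on low signals (points, arrays; bar, mean; whisker, SD; own vertical axis in each panel). The groups overlap in all 6 panels, and at Ccl2 hydrogen water array 2 stands above the other treated arrays.

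The adhesion molecules did not move together. Vcam1, the endothelial counter-receptor of the integrin VLA-4, gave 94.5, 118, 192 and 134 in controls and 211, 175, 244 and 208 with hydrogen water. Of the treated arrays, 1, 3 and 4 were above every control and array 2 was below control 3. The difference was 0.67 ± 0.19 (SE) on the log2 scale and missed the threshold. Without control 3 it was 0.85 and passed. Icam1, which binds the integrins LFA-1 and Mac-1, gave 155, 153, 125 and 155 in controls and 84.9, 116, 214 and 184 with hydrogen water. The treated arrays of Icam1 lay on both sides of the controls, and the difference was −0.06 ± 0.25 (SE), with an SD of 0.60 among treated arrays against 0.15 among controls.

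Of the 16 member probe sets, 10 passed the filter and 6 did not, and 7 of the 10 genes had a tested probe set. The fit called 2 of the 10 tested probe sets, both lower with hydrogen water, 1 of Cxcl12 and 1 of Il33. Over all 15521 tested probe sets 0.818% were called, and 0.374% were called lower. The groups did not overlap at 5 of the 10, all lower, against 7.48% of all tested probe sets in either direction and 3.63% in the lower direction. The genes were chosen with this contrast known, so these counts are read no further.

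The arrays differed in brightness, with deposited medians from 18.9 to 26.8 in controls and from 17.2 to 20.2 with hydrogen water, and the 3 brightest arrays were controls. With the brightness of the array as a covariate, the difference at Cxcl12 1369633_at was −0.71 ± 0.12 (SE) and that at Il33 1373970_at −0.71 ± 0.17 (SE). Neither passed the threshold then, and 12 probe sets did in all. Neither passed in a test against a minimum fold of 1.2 either, where 25 probe sets did. Under 5 other ways of scaling the arrays the 2 probe sets passed each time, with differences from −1.05 to −0.66 for Cxcl12 and from −1.17 to −0.78 for Il33. Both also passed whichever of the 8 arrays was left out. With the covariate the difference of Cxcl1 was −0.02 and that of Cxcr4 1389244_x_at was 1.06, and without normalization that of Vcam1 was 0.31. None of these passed. The sign of Cxcl12 1388583_at turned positive under spike-in scaling (0.03), and that of Icam1 turned with the covariate (0.02) and without treated array 1 (0.18) or 2 (0.03).

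**Figure D4:**
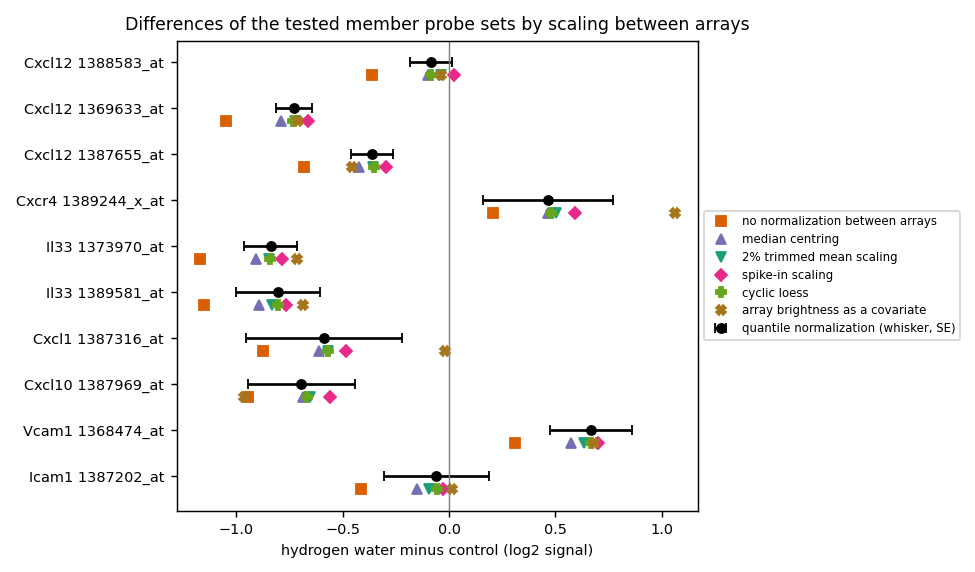
Difference between hydrogen water and control (log2 signal, horizontal axis) for the 10 tested member probe sets, with quantile normalization (black, whisker SE) and under 5 other scalings or with array brightness as a covariate (coloured marks). The marks of Cxcl12 1369633_at and both Il33 probe sets lie below 0 in each setting drawn, those of Vcam1 above 0, and those of Cxcl12 1388583_at and Icam1 on both sides.

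The other genes of the same pathways showed no change that passed. Of 131 listed genes that are no members, 107 had a probe set on the array and 60 passed the filter on low signals. By limma 0 of the 60 passed, and 9 had an unadjusted p under 0.05, against 12.5% of all tested probe sets. The median difference was −0.02, against −0.00074 over all tested probe sets. Among 11 chemokine ligands the smallest p was that of Cxcl11, which with Cxcl10 binds CXCR3. Cxcl11 ranged from 340 to 504 in controls and from 209 to 324 with hydrogen water, without overlap, a difference of −0.67 ± 0.15 (SE, adjusted p = 0.0739). Ccl5, a T cell and monocyte attractant, differed by 0.40 ± 0.17 (SE, adjusted p = 0.356), and Cxcl14 by 0.41 ± 0.22 (SE, adjusted p = 0.483). The list's median difference was 0.01. Only 2 of 16 chemokine receptors on the array passed the filter. They were the scavenging receptor Ackr4 at −0.26 ± 0.20 and Cxcr5, a chemokine receptor of B cells, at 0.38 ± 0.32 (SE). Leaving out 1 array took Ackr4 to −0.16 (control 1) and Cxcr5 to 0.26 (control 3), 0.13 (treated array 1) or 0.62 (treated array 3).

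Interleukin 1 family ligands, receptors and signalling proteins gave 15 tested genes, 10 with a positive and 5 with a negative difference, and a median of 0.02. Il1r1, the receptor of interleukin 1, ranged from 421 to 689 in controls and from 751 to 911 with hydrogen water, without overlap, a difference of 0.60 ± 0.14 (SE, adjusted p = 0.076). The other 2 tested probe sets of Il1r1 differed by 0.46 and 0.41 and did not pass. Il1a, another nuclear cytokine of the family, ranged from 122 to 202 and from 88.0 to 130, a difference of −0.53 ± 0.17 (SE, adjusted p = 0.204). At the other tested probe set of Il1a the difference was −0.26 ± 0.21 (SE). Il1rn, the receptor antagonist, differed by 0.70 ± 0.24 (SE, adjusted p = 0.247). Without control array 3, Il1r1 passed and was the sole pathway gene to do so.

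Among 11 adhesion molecules and leukocyte counter-receptors the median difference was 0.02. The junctional adhesion molecule Jam3 differed by 0.43 ± 0.16 (SE, adjusted p = 0.294), Itgal, the LFA-1 chain that binds ICAM-1, by 0.32 ± 0.14 (SE, adjusted p = 0.393), and Jam2 by 0.18 ± 0.12. The other tested probe sets of Jam2 differed by 0.54 ± 0.32 and 0.06 ± 0.32 (SE). Itgal and Jam2 turned negative without normalization between arrays, where the median of all probe sets shifted by −0.33. The 17 tested genes of NF-kappaB and TNF signalling had a median of −0.06, with Birc3, an inhibitor of apoptosis and NF-kappaB target, at −0.55 ± 0.23 (SE, adjusted p = 0.353), without overlap between the groups, and at −0.32 without treated array 1. Nfkb2, a subunit of the factor, differed by −0.45 ± 0.20, and its partner Bcl3 by 0.65 ± 0.35 (SE), or 0.25 without control 4. The other tested probe sets of Bcl3 differed by 0.67 ± 0.21 and 0.31 ± 0.22 (SE) and did not pass. Nfkbia, the feedback inhibitor, differed by 0.02 ± 0.24 (SE). Of the proteases that cut chemokines or shed CX3CL1 and VCAM-1, 4 were tested, and all 4 differences were negative and did not pass, with Adam17 at −0.20 ± 0.12, Adam10 at −0.19 ± 0.19 and Mmp2 at −0.08 ± 0.14 (SE). Adam10 was at −0.04 without control 4 and −0.07 without treated array 4, and Adam17 at −0.13 without treated array 3. At the other tested probe set of Adam10 the difference was −0.02. Mmp2 was slightly positive (0.04) with array brightness as a covariate. Dpp4, which inactivates CXCL12, differed by −0.02 ± 0.11 (SE), and by 0.17 at its other tested probe set.

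**Figure D5:**
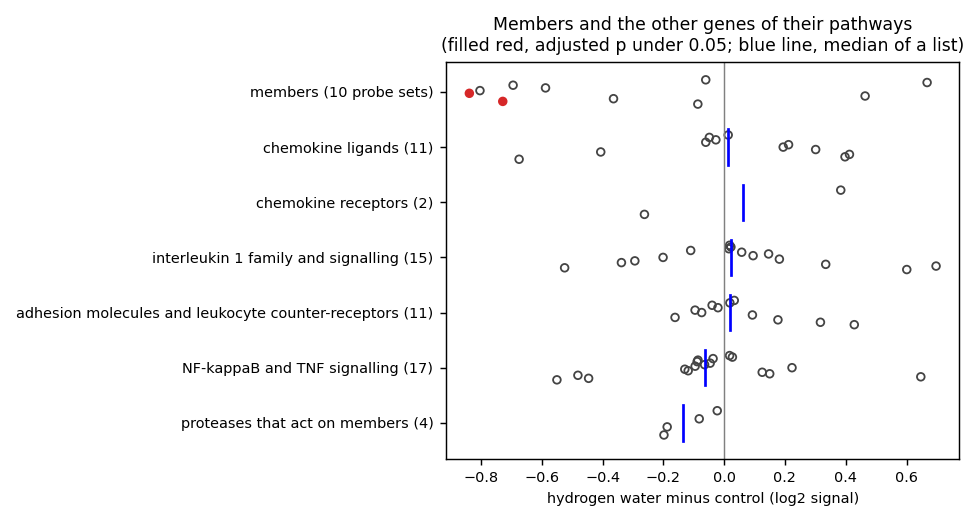
Difference between hydrogen water and control (log2 signal) of the 10 tested member probe sets and of the 60 other tested pathway genes, 1 point each, by list (blue line, median of the list). Filled red points, past an adjusted p of 0.05, are 1 probe set of Cxcl12 and 1 of Il33, and the medians of the other lists lie between −0.14 and 0.06.

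Markers of the cells that make these proteins were read beside them. Of 10 tested markers of liver sinusoidal endothelial cells 0 passed by limma, and 7 differences were positive and 3 negative. An unadjusted p under 0.05 was found for 4, all higher, against 12.5% of all tested probe sets in either direction. They were Ptprb at 0.34 ± 0.09 (SE, adjusted p = 0.101), Stab2 at 0.42 ± 0.13 (SE, adjusted p = 0.204), Lyve1 at 0.38 and Gpr182 at 0.36. Stab2 had 1 tested probe set. At another tested probe set the difference was 0.71 for Ptprb, 0.28 for Lyve1 and −0.01 for Gpr182. The 3 negative markers were Stab1 at −0.24, Vwf at −0.16 and Kdr at −0.10. The summed signal of the 10 ran from 3620 to 4080 in controls and from 3890 to 4650 with hydrogen water. Sums given here are of signals on the linear scale, so the brightest markers of a list weigh most. Of 9 tested markers of stellate cells and fibroblasts 0 passed and 0 had an unadjusted p under 0.05. Their differences were negative for 7, with Pdgfrb at −0.50 ± 0.25 and Col1a1 at −0.42 ± 0.21 (SE). They were positive for 2, Dcn at 0.30 and Rgs5 at 0.11. Col1a1 differed by −0.08 at its other tested probe set. The summed signal of the 9 ran from 2920 to 3230 in controls and from 2470 to 3190 with hydrogen water. The 9 markers of Kupffer cells and macrophages summed to 3920 to 5560 in controls and 4300 to 5190 with hydrogen water. Of their differences 6 were positive and 3 negative. C1qb was at 0.15 ± 0.15 and C1qc at 0.11 ± 0.10 (SE), and the lowest, Adgre1, at −0.12 ± 0.14 (SE). The cholangiocyte markers Epcam and Krt19 differed by −0.37 ± 0.17 and −0.03 ± 0.30 (SE) and summed to 120 to 181 and 98.2 to 121. Of the leukocyte markers, only Prf1, Cd4 and Ptprc of 11 lymphocyte genes and S100a9 of 5 neutrophil genes on the array passed the filter, with summed signals of 112 to 149 against 98.6 to 151 and of 25.1 to 29.5 against 23.3 to 53.9. The 8 tested hepatocyte markers, among them Alb and Hpx, had signals between 5580 and 11700, so the markers that define liver tissue were present. No marker was at 0, since all deposited signals are above 0, and the part of cell makeup in the differences of Cxcl12 and Il33 was not tested.

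The genes whose signals followed those of Cxcl12 and Il33 most closely were taken as those with the smallest root mean square difference over the 8 arrays, each profile centred on its own mean. For the brightest probe set of Cxcl12, 1388583_at, they were Tmsb4x, which encodes an actin-binding peptide, at 0.03, Gkap1 at 0.04 and Optn, an autophagy receptor, at 0.05 on the log2 scale. These 3 differed between the groups by −0.09 ± 0.10, −0.07 ± 0.14 and −0.08 ± 0.10 (SE), against −0.09 ± 0.10 for that probe set. For Il33 1373970_at they were the Wnt receptor Fzd1 at 0.14, the polarity gene Crb3 at 0.17 and Zfp788 at 0.18. Fzd1 ranged from 197 to 319 in controls and from 126 to 159 with hydrogen water, and the differences of the 3 were −0.77 ± 0.15, −0.63 ± 0.20 and −0.65 ± 0.21 (SE). The difference between the groups is part of each profile, so similar differences follow from how these genes were picked. Around its own mean, Cxcl12 1388583_at varied by a root mean square of only 0.14, and Il33 1373970_at by 0.45.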

How the data were processed

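Biotin-labelled RNA was read on Affymetrix arrays. The deposited values are intensities on a linear scale, which the authors made with MAS5, per the submitters' processing notes. Its scaling target, and whether a signal was called present, are not stated in these sources, so no probe set is called absent. Signals were quantile-normalized, since array medians differed, and log2 was taken after adding 2.05, which is 10% of the overall median. Fold changes on this scale are understated where the signal is dim. Without the 57 control probe sets 31042 remained, and the 15521 at or above their median mean log2 signal were tested by limma 3.58.1 (lmFit, then eBayes with a trend) under R 4.3.3, with Benjamini-Hochberg adjustment over all of them at 0.05. The SE of a ratio of probe sets comes from the spread over arrays.

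Symbols came from the platform annotation, for 20826 probe sets with a single symbol, and 20758 of these matched RefSeq by Entrez ID with 0 changes. Another 436 had several symbols and 9780 none. A pathway or marker gene was represented by its brightest tested probe set. Named are all members, the first 3 genes by p of each pathway list, the first 2 of each marker list and the 3 closest profiles. Nfkbia, Dpp4, Ptprc, Lyve1, Gpr182, Stab1, Vwf, Kdr, Dcn, Rgs5 and Adgre1 were named after their values were seen. The 2 tested probe sets of Ptprc differed in sign. The members, gene lists, motifs and settings were chosen with earlier results of these data known. The limma fit was tested on simulated log2 signals, without the normalization step, and the motif search on a made-up sequence. The other steps were not tested in this way. The number of arrays limits the precision. Alternatives were other scalings, pseudocounts and filters, a prior without a trend, array weights, array brightness as a covariate, a replicate block, a minimum fold, gene means and leaving out each array.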

Additional observations from a re-analysis of the deposited data

Results flagged for a closer look

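In 10 of 66 groups of 4 arrays checked, 1 array stood apart from the other 3, by a gap whose share of the group's range was above Dixon's 95% critical value, which chance exceeds in about 1 in 20 groups. At Cxcl12 the array apart was hydrogen water 2 for 1388583_at (a share of 0.8295), control 1 for 1369633_at (0.953) and control 3 for 1387655_at (0.859). For 1369633_at control 1 read 895 against 790 to 794 in the other controls. Control 3 was also apart, and low, at Icam1 (0.952), and control 2, at 40.7, was high at Cxcl10 (0.834). Among treated arrays, array 1 was low at Cxcr4 1389244_x_at (0.89), Jam3 (0.855) and Birc3 (0.92), array 2 was high at Ccl2 (0.847) and array 4 was low at Adam10 (0.952).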

How the results depend on the processing

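In the limma fit 127 probe sets passed, and 505 did without normalization between arrays, 64 without a trend in the prior, 12 with array brightness as a covariate and 25 with a minimum fold of 1.2. Leaving out 1 array gave 55 to 197, with 197 without control 3, 61 and 58 without controls 2 and 4, and 61, 55 and 68 without treated arrays 1, 3 and 4. Of the calls 54.3% were higher with hydrogen water, against 4.16% without normalization, 29.4% with median centring and 70.8% with spike-in scaling. The 2 member probe sets that passed became 4 without normalization, and 0 with array brightness as a covariate or a minimum fold of 1.2. Those added were Cxcl12 1387655_at and Il33 1389581_at. The 0 pathway genes that passed became 2 without normalization (Cxcl11 and Il1a), 1 with median centring or array weights (Cxcl11) and 1 with a replicate block (Il1r1), and 0 to 1 when an array was left out. Itgal and Jam2 turned negative without normalization (−0.036 and −0.18). Mmp2 turned positive with the covariate (0.044) and without control array 1, where its differences ran from −0.16 to 0.0012 over the arrays left out. The labels give same-numbered arrays only a common number and do not say whether they were handled together. Their deviations from the group means correlated at −0.1, 0.04, 0.19 and −0.003, and with a replicate block 178 probe sets passed, 3 of them members (Il33 1389581_at added). Without control array 3 Vcam1 passed. No other setting run changed a member's call. The causes were not tested.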
